A study of Saccharomyces cerevisiae with 4 samples.

Results

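Glycogen metabolism in Saccharomyces cerevisiae was followed through the genes that make, branch, regulate and break down the polymer. The genes were chosen by identifier from a list of 10, and 8 of them were among the 4970 regions of the deposited count table. These 8 were GLG1, GLG2, PGM2, UGP1, GSY1, GSY2, GLC3 and PIG1. The phosphorylase GPH1 and the debranching enzyme GDB1 were not analysed here, so the list covers synthesis and its control but not breakdown. The data were 4tU-seq counts, in which a brief pulse of 4-thiouracil marks new RNA, which is then purified and sequenced. Both groups were strain BY4741, grown at 30 °C in the glucose medium YPD from an OD600 of 0.1 to 0.8 and labelled with 5 mM 4-thiouracil for 6 min. The Δsyc1 knockout (2 libraries) had the genotype syc1::kanMX, in which a drug resistance cassette replaces SYC1, and the other group (2 libraries) was wild-type. Syc1 is the subunit that defines the APT complex, which also holds the phosphatase Glc7, and the comparison asks how RNA synthesis changes without it.

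Glycogen is the branched glucose store of yeast and is laid down as growth slows, nutrients run short or cells are stressed. Pgm2 and Ugp1 turn glucose 6-phosphate into UDP-glucose by way of glucose 1-phosphate. The glycogenins Glg1 and Glg2 start a chain on themselves, the synthases Gsy1 and Gsy2 extend it and Glc3 adds the branches. Synthase is inactive when phosphorylated, and Glc7 removes the phosphates when targeting subunits such as Gac1 and Pig1 bring it to glycogen.

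The libraries held 22880058 to 36175417 counts. The deleted gene SYC1 kept 1 and 2 counts in Δsyc1 against 743 and 794 counts in wild-type. LEU2, MET17 and URA3, which strain BY4741 lacks, were at 0 counts throughout. Mating-type a genes were lower in Δsyc1, with 4 of 5 called down (median log2 fold change −1.28), beside 8.15% of all genes tested. STE2 went from 729 ± 8.88 CPM in wild-type to 299.5 ± 17.5 CPM in Δsyc1 (SD, n = 2). Of the 2 mating-type alpha genes tested, 0 were called (log2 fold change 0.42 for STE3 and 0.08 for SAG1). The part of the change in mating-type a genes in other results was not tested. The 8 glycogen genes had at least 421 counts in every library. All 8 were higher in Δsyc1 replicate 2 than in Δsyc1 replicate 1, against 48.9% of all genes tested. All 8 passed the filter, which keeps genes with a mean of at least 30 normalized counts in either group. These are bulk libraries, so more RNA per cell and more cells that make the RNA cannot be told apart.

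Most of the synthetic pathway rose in the knockout. Of the 8 genes, 6 were called up and 0 down, where calling required more than a 1.5-fold change together with an adjusted p below 0.1 (edgeR quasi-likelihood test, Benjamini-Hochberg over 4845 genes). Of all genes tested 17.2% were called, 9.08% up and 8.15% down. The branching enzyme gene GLC3 (3.55-fold) and the synthase gene GSY2 (3.12-fold) rose most, followed by UGP1 (2.43-fold), PGM2 (2.07-fold), GSY1 (1.70-fold) and GLG1 (1.51-fold). GLG2 and PIG1 were not called. The median log2 fold change of the 8 genes was 0.90, beside −0.02 over all genes tested, and over the 1938 mRNAs whose counted region is as long as theirs (1364 to 2543 nt) it was 0.06. In 6 of the 8 genes both knockout libraries lay above both wild-type libraries, and in 0 below. Among all genes tested 40.5% were higher and 43.2% were lower in this sense, so this separation alone is common in these data.

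**Figure D1:**
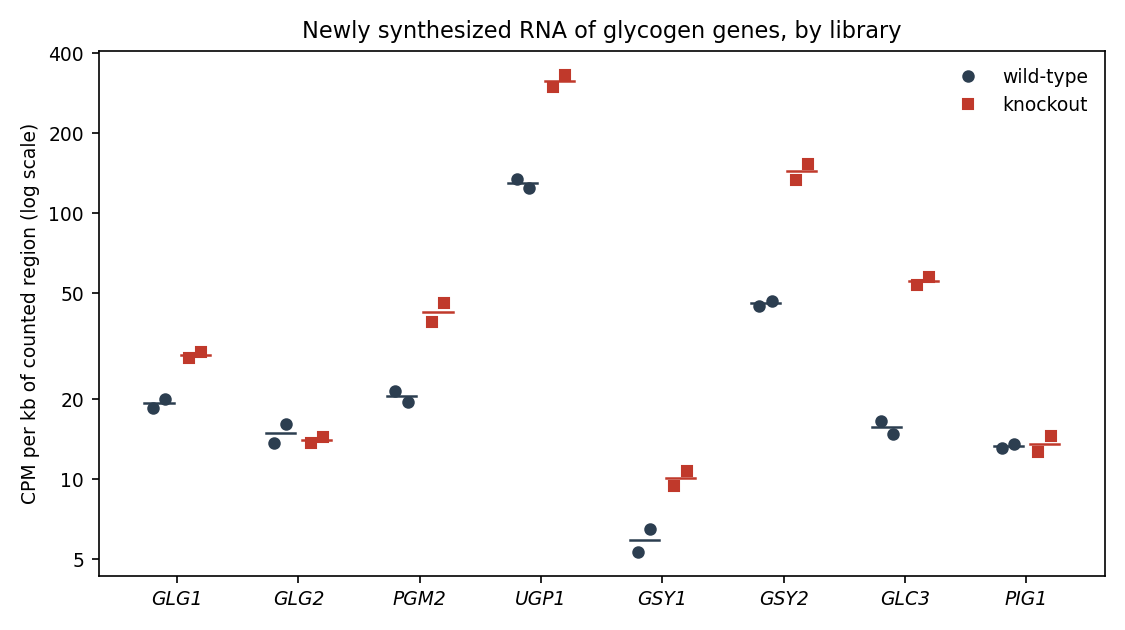
Level of each glycogen gene in CPM per kb of counted region (log axis) in the 2 wild-type libraries (circles) and the 2 knockout libraries (squares), with short lines at the group means. The groups are apart for GLG1, PGM2, UGP1, GSY1, GSY2 and GLC3, and overlap for GLG2 and PIG1.

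Among the genes of precursor supply, UGP1 (YKL035W, chromosome XI, 369821 to 371558, plus strand, sacCer3) encodes UDP-glucose pyrophosphorylase. Its CPM (counts scaled to library size with TMM factors) was 517 and 577 in the Δsyc1 libraries and 235 and 216 in wild-type. Both knockout libraries were far above both wild-type libraries, and the log2 fold change was 1.28 ± 0.07 (SE, edgeR adjusted p 2.09e-06). The counted region overlaps YKL036C on the other strand by 124 bases, and the YKL036C region had 21 to 46 counts per library. Whether strand was used in counting is not stated, so the effect of the overlap on the UGP1 counts is not known. PGM2 (YMR105C, chromosome XIII, 475748 to 477665, minus strand) encodes the major phosphoglucomutase. It had 74.8 and 88.3 CPM in Δsyc1 and 41.3 and 37.6 CPM in wild-type. The knockout libraries differed from each other more than the wild-type ones but stayed well clear of them (log2 fold change 1.05 ± 0.09, adjusted p 2.66e-05). UDP-glucose is shared with trehalose synthesis and the cell wall, so neither gene serves glycogen alone. The minor phosphoglucomutase gene PGM1 showed a log2 fold change of 0.31 ± 0.06 (adjusted p 0.00254), below the fold minimum.

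Because the called genes moved together, their promoters were read in the R64 reference genome, whose chromosomes hold all counted regions. The stress response element, AGGGG, which reads as CCCCT when the complementary strand carries it, is the site through which the transcription factors Msn2 and Msn4 act. It was counted on both strands in the 500 bases before each counted region, whose first base is taken here as the transcription start. Of 4909 mRNAs, 35.0% had at least 1 match and 8.80% at least 2, and among the 438 mRNAs called up these shares were 61.6% and 26.7%. PGM2 had 6 matches, UGP1 had 5, GLC3 had 3, and GSY1, GSY2 and GLG2 had 2 each. GLG1 and PIG1 had 0 in this window. Of the uncalled genes GLG2 had 2 matches and PIG1 had 0, and of the called genes only GLG1 had 0. Whether the match count goes with calling was not tested. A match is a run of letters and not evidence of binding. The PGM2 promoter carried the most matches and is shown for the 300 bases before the transcription start (chrXIII:477666-477965, minus strand, RefSeq R64), 5′ to 3′, with the 4 matches that fall in it in capitals.
PGM2 promoter: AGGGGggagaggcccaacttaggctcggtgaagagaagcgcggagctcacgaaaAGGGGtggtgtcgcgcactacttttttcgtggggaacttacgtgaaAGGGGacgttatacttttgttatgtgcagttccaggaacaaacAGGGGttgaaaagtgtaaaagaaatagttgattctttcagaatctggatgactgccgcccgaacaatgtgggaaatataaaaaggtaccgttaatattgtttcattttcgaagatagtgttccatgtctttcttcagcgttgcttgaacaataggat

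**Figure D2:**
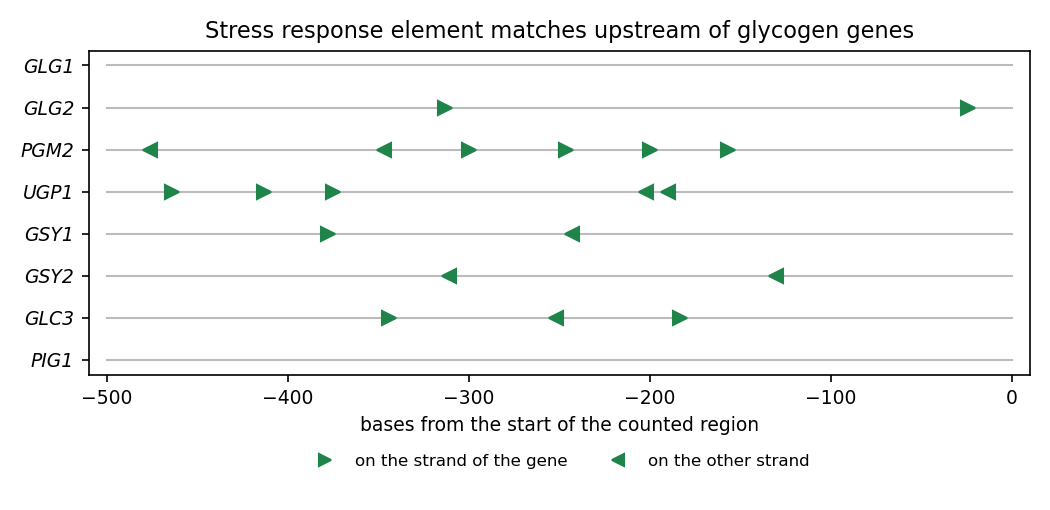
Positions of the stress response element in the 500 bases before each glycogen gene (x axis, bases from the start of the counted region), with right-pointing triangles for the strand of the gene and left-pointing ones for the other strand. PGM2 has 6 matches and UGP1 has 5, while GLG1 and PIG1 have 0.

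Chain initiation showed a split between the paralogs. GLG1 (YKR058W, chromosome XI, 552590 to 554712, plus strand) had 60.5 and 63.8 CPM in Δsyc1 and 39.5 and 42.6 CPM in wild-type. The groups did not overlap, and the log2 fold change of 0.60 ± 0.07 (edgeR adjusted p 0.000124) was only just over the minimum of 0.58. The value fell below that minimum under some settings, with 0.51 under upper-quartile factors, 0.45 without normalization factors, 0.45 under the length offset, 0.56 without Δsyc1 replicate 2 and 0.55 without wild-type replicate 1. It stayed above the minimum with DESeq2 size factors (0.61), without Δsyc1 replicate 1 (0.64) and without wild-type replicate 2 (0.66). GLG2 (YJL137C, chromosome X, 154847 to 156210, minus strand) had 18.7 and 19.7 CPM in Δsyc1 and 18.6 and 21.9 CPM in wild-type. Here the knockout values lay inside the wild-type range (log2 fold change −0.08 ± 0.10, adjusted p 0.501), and the approximate 95% interval of −0.28 to 0.12 leaves out a 1.5-fold change in either direction. The sign for GLG2 turned to 0.04 without wild-type replicate 2.

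The ratio of GLG2 to GLG1 in counts per kb, which needs no scaling between libraries, was 0.481 and 0.480 in Δsyc1 and 0.735 and 0.802 in wild-type. The knockout ratio was lower in both libraries (log2 difference −0.68), and the gap exceeded the spread within either group. The two-sided exact permutation p was 0.333, the smallest that this test can give with 2 against 2 libraries. The paralogs lie in similar surroundings, GLG1 between RPS21A and TIF1 and GLG2 between RPS21B and TIF2.

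Both synthase genes rose, and by different amounts. GSY2 (YLR258W, chromosome XII, 660650 to 663192, plus strand), which encodes the major isoform, had 339.9 and 389.7 CPM in Δsyc1 and 114 and 119 CPM in wild-type. Every knockout value was well above every wild-type value (log2 fold change 1.64 ± 0.07, edgeR adjusted p 6.24e-07), and only 58 of the 4845 genes tested had a log2 fold change at least as high. GSY1 (YFR015C, chromosome VI, 174127 to 176480, minus strand), the minor isoform, had 22.1 and 25.3 CPM in Δsyc1 and 12.6 and 15.4 CPM in wild-type. Its groups were also apart, with a smaller distance (log2 fold change 0.76 ± 0.12, adjusted p 0.000706). The region counted for GSY2 overlaps HSP60 on the other strand by 2 bases, and none of the 8 glycogen genes had a 50-mer repeated elsewhere in the genome (0 in each), so the paralogs could be counted apart at that length.

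Within each library the ratio of GSY2 to GSY1 in counts per kb was 14.2 and 14.3 in Δsyc1 and 8.42 and 7.19 in wild-type. It was 1.83-fold higher in the knockout, again with an exact two-sided permutation p of 0.333, the smallest possible. In both paralog pairs the more abundant gene gained on the less abundant one. The stress response elements of GSY2 lie on the other strand and those of GSY1 on either strand, and they are shown for the pair because the paralogs differ in level and in change (29 bases each, 5′ to 3′ on the strand of the gene, match in capitals). The GSY2 matches begin 311 and 130 bases before the transcription start (chrXII:660327-660355 and chrXII:660508-660536), and the GSY1 matches 378 and 243 bases before it (chrVI:176842-176870 and chrVI:176707-176735, minus strand).
GSY2 distal: gacactggactgCCCCTggattagcgacc
GSY2 proximal: gaacgcaattcaCCCCTttctttcttatg
GSY1 distal: acggaatctttcAGGGGcacaatttcccg
GSY1 proximal: ccacaagtaataCCCCTtggaggattttt

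**Figure D3:**
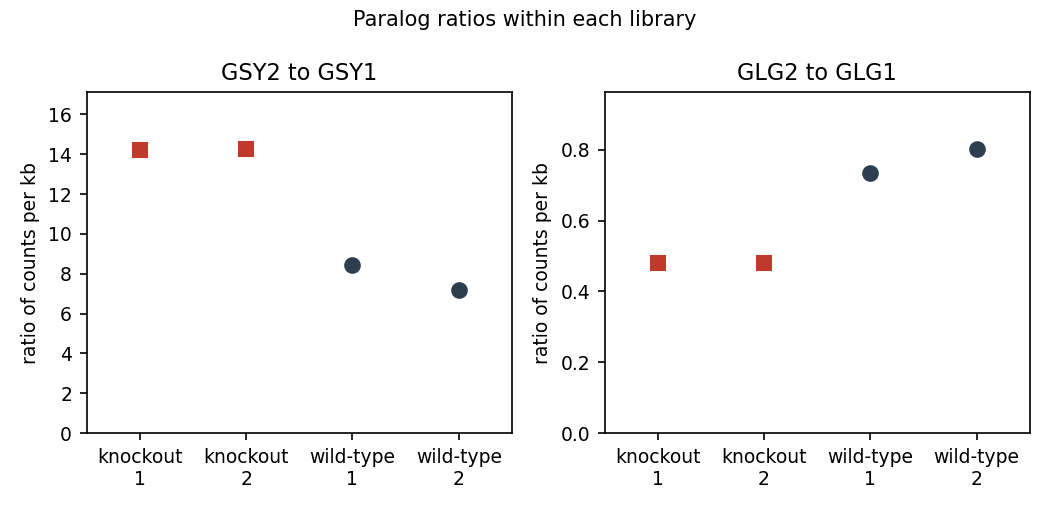
Ratio of GSY2 to GSY1 (left) and of GLG2 to GLG1 (right) in counts per kb within each library (y axes from 0), with squares for knockout and circles for wild-type. The GSY2 to GSY1 ratio is 14.2 and 14.3 in Δsyc1 against 8.42 and 7.19 in wild-type, and the GLG2 to GLG1 ratio is lower in both knockout libraries.

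The branching enzyme gene GLC3 (YEL011W, chromosome V, 133090 to 135346, plus strand) changed most of the 8. It had 121 and 129.9 CPM in Δsyc1 and 37.3 and 33.5 CPM in wild-type. The lowest knockout value was over all wild-type values by a wide margin, with log2 ratios of 1.70 to 1.96 when each Δsyc1 library was set against each wild-type one. The log2 fold change was 1.83 ± 0.07 (edgeR adjusted p 3.96e-07), and 47 genes tested, GLC3 among them, had one at least as high. Its 3 stress response element matches begin 344, 252 and 183 bases before the transcription start (chrV:132734-132762, chrV:132826-132854 and chrV:132895-132923) and are shown as those of the gene with the highest rise.
GLC3 distal: agtctgtcatccAGGGGaagggcagggca
GLC3 middle: tcttccgcaataCCCCTttttgcctatat
GLC3 proximal: aagctttgtccaAGGGGctgttgcaacgg

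PIG1 (YLR273C, chromosome XII, 688925 to 691247, minus strand) encodes a subunit thought to target Glc7 to glycogen synthase. It had 29.3 and 33.9 CPM in Δsyc1 and 30.3 and 31.6 CPM in wild-type. The wild-type values lay inside the knockout range (log2 fold change 0.03 ± 0.09, edgeR adjusted p 0.797, approximate 95% interval −0.14 to 0.20). The sign was negative under the length offset (−0.13), without normalization factors (−0.13) and with upper-quartile factors (−0.06), and it was not called under any of them. The gene of the phosphatase itself, GLC7, stood at 423 ± 11.7 CPM without SYC1 and 485 ± 0.484 CPM with it (SD, n = 2). Its log2 fold change of −0.20 ± 0.05 (adjusted p 0.00871) was below the fold minimum.

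On the per-kb scale, which divides by the length of the counted region, UGP1 was highest and GSY1 lowest in both groups. Between genes only region length was corrected for, so the order of levels is approximate. In wild-type UGP1 had 129.5 ± 7.64 CPM per kb and GSY2 had 45.9 ± 1.42 (SD, n = 2). PGM2 (20.6 ± 1.37) and GLG1 (19.3 ± 1.03) followed and did not differ beyond their spread. GLC3 (15.7 ± 1.19) did not differ from GLG2 (14.9 ± 1.71) beyond the spread. Both GLC3 libraries were above both PIG1 libraries (13.3 ± 0.383). So were both GLG2 libraries, by a narrow margin (13.7 and 16.1 against 13.0 and 13.6). GSY1 was at 5.93 ± 0.840. In the knockout GLC3 had 55.6 ± 2.72 CPM per kb and stood next after UGP1 (315 ± 24.2) and GSY2 (143 ± 13.8), having ranked below PGM2 and GLG1 in wild-type. PGM2 (42.5 ± 5.00) and GLG1 (29.3 ± 1.09) came next, GLG2 (14.1 ± 0.505) and PIG1 (13.6 ± 1.39) did not differ beyond their spread, and GSY1 (10.1 ± 0.947) was again the last. Among all genes tested, mean levels per kb ran from the 4.87th percentile for GSY1 to the 90.1th for UGP1.

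Summed over the 8 genes, the level was 1184 and 1327 CPM in Δsyc1 and 528 and 518 CPM in wild-type. This was 2.40-fold higher in the knockout (exact two-sided permutation test over libraries, p = 0.333, the smallest possible). As a share of all counts it was 0.114% and 0.124% against 0.0554% and 0.0549%. UGP1 made up 41.7% to 44.4% of the sum in every library. GSY2 went from 21.6% and 23.0% in wild-type to 28.7% and 29.4% in the knockout, and PIG1 from 5.74% and 6.10% to 2.47% and 2.55%.

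Other genes of glycogen control were read from a list by name. Of 15 listed, 11 were tested, of which 3 were called up and 0 down, with a median log2 fold change of 0.23. Over all genes tested the shares were 9.08% up and 8.15% down, and the median was −0.02. IGD1, whose product inhibits the debranching enzyme, had 7.57 and 7.19 CPM in Δsyc1 and 2.61 and 3.70 CPM in wild-type (99 to 190 counts) and rose by a log2 fold change of 1.23 ± 0.17 (edgeR adjusted p 0.000448). PIG2 and GIP2 encode further Glc7 targeting subunits related to each other. PIG2 reached 203 ± 4.31 CPM in Δsyc1 against 123 ± 0.471 CPM in wild-type (mean ± SD, n = 2), a log2 fold change of 0.72 ± 0.05 (adjusted p 9.46e-06), and GIP2 reached 12.7 ± 0.0561 CPM in Δsyc1 against 7.62 ± 1.23 (log2 fold change 0.74 ± 0.13, adjusted p 0.00134). The call of GIP2 was lost under the length offset and without wild-type replicate 1 (0.58 each), and that of PIG2 without normalization factors (0.56). GIP2 was also lost when edgeR tested against a fold change of 1.5, where IGD1 and PIG2 stayed called. GLC8, an activator of Glc7, showed a log2 fold change of −0.28 ± 0.09 (adjusted p 0.0215). The kinase gene PHO85, whose product phosphorylates Gsy2 together with the cyclins Pcl8 and Pcl10, was not called, and neither were PCL6, PCL7, PCL8 and PCL10 (log2 fold changes between −0.19 and 0.33 for these 5 genes).

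**Figure D4:**
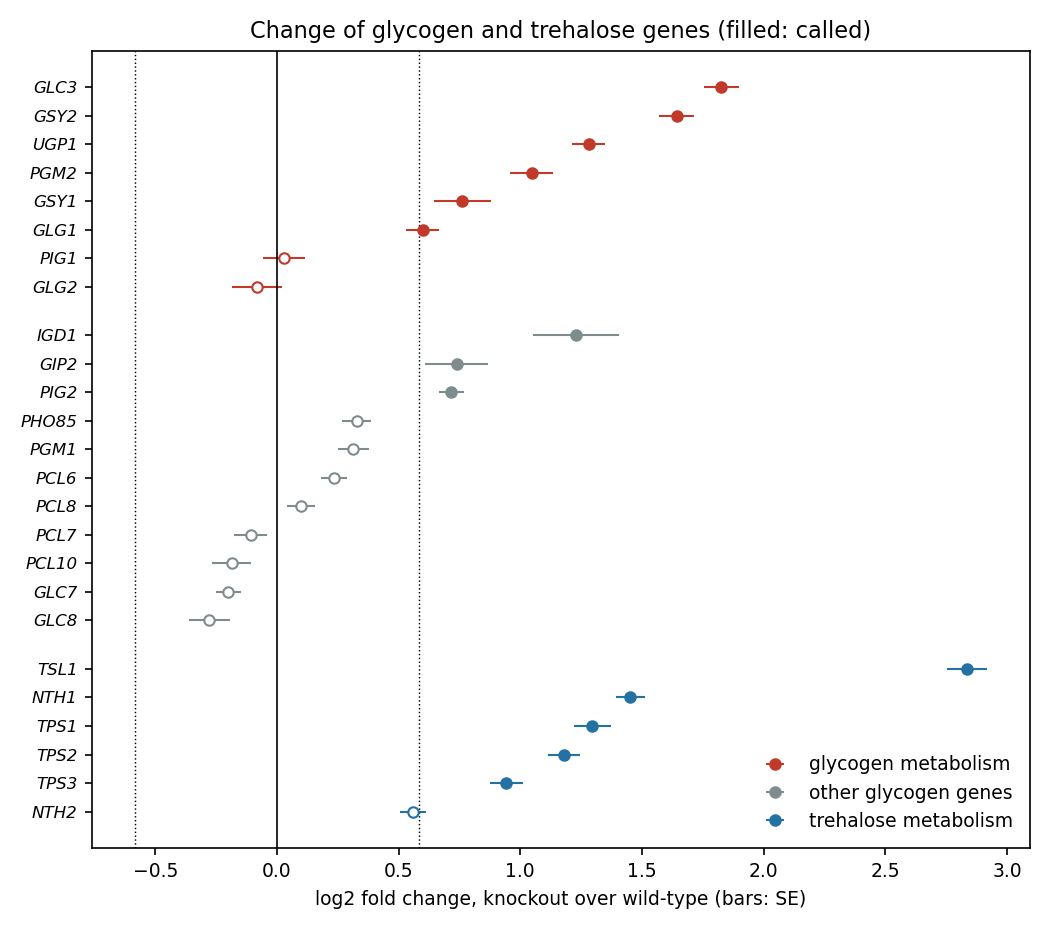
Log2 fold change of knockout over wild-type (x axis, bars are SE) for the 8 glycogen genes, 11 other genes of glycogen control and 6 trehalose genes, with filled points for called genes and dotted lines at a 1.5-fold change. GLC3 and GSY2 lie farthest right among the glycogen genes, and PIG1 and GLG2 lie near 0. Of the 6 trehalose genes 5 are called up, beside 9.08% of all genes tested.

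Trehalose is the other glucose store and draws on the same UDP-glucose, so PGM2 and UGP1 serve both. Of the 6 trehalose genes tested, 5 were called up and 0 down, with a median log2 fold change of 1.24. The shares over all genes tested were 9.08% up and 8.15% down. TSL1, a regulatory subunit of the synthase complex, rose most (2.84 ± 0.08 SE, edgeR adjusted p 2.17e-07), and the synthase gene TPS1 rose by 1.30 ± 0.08 (adjusted p 3.27e-06), close to UGP1. The genes of the phosphatase TPS2 (1.18) and the subunit TPS3 (0.94) rose as well, and so did the gene of the degrading enzyme NTH1 (1.45). NTH2, the second trehalase gene, showed a log2 fold change of 0.56 ± 0.05 (adjusted p 5.59e-05), below the fold minimum. Whether the trehalose genes differ from the glycogen genes was not tested. At the entry of glucose, EMI2, a hexokinase-family gene, rose by 1.87 ± 0.11 (adjusted p 2.80e-06), whereas HXK2, the main hexokinase gene of cells on glucose, showed a log2 fold change of 0.06 ± 0.07 (adjusted p 0.491), negative under the length offset and under upper-quartile or no factors.

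Stress genes moved together with the glycogen genes. Of 20 tested, 18 were called up and 0 down (median log2 fold change 1.26), and their summed level was 32912 and 33868 CPM in Δsyc1 against 17762 and 16799 CPM in wild-type. A few abundant chaperone genes dominate that sum. The largest, HSP104, had a mean of 12686 CPM in Δsyc1 and 8873 CPM in wild-type and was not called (log2 fold change 0.52). HSP26 (2.86), HSP12 (2.61, on 5 to 26 counts per library) and DDR2 (2.16) rose most. The list was chosen with earlier results of these libraries known, so it is not independent of them. Of 8 genes repressed by glucose, 1 was called up and 0 down (median 0.31), the called gene being POX1 (2.51 ± 0.22 SE, adjusted p 2.97e-05). Among all genes tested 9.08% were called up and 8.15% down, so 1 of 8 is near the general share. Of 13 regulators of these pathways, 3 were called up and 0 down (median 0.14). Among them was GIS1 (0.63 ± 0.06 SE), which encodes a transcription factor of nutrient limitation. Its value was below the fold minimum under the length offset (0.44), without normalization factors (0.48), under upper-quartile factors (0.55) and without Δsyc1 replicate 2 (0.56). MSN2 and MSN4 RNA had log2 fold changes of 0.09 ± 0.06 (adjusted p 0.175) and −0.03 ± 0.07 (adjusted p 0.728). The part of stress or of growth state in the rise of the glycogen genes was not tested.

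Regions beside the glycogen genes were called at about the rate of all genes tested (9.08% up and 8.15% down). Of the 16 nearest counted regions, 2 were called up, 1 was called down and 13 were uncalled. The called ones, named after their values were seen, were CMK1 beside GSY1 (0.66 ± 0.06 SE), YLR257W beside GSY2 (0.78 ± 0.05 SE) and RPS21A beside GLG1 (−0.97 ± 0.08 SE). Over the 4 libraries, the profiles nearest to the mean of the 8 glycogen genes were those of DCS2, OSH2, PIP2, PDL32 and YNR014W. Their Euclidean distances were 0.0338 to 0.0631 in centred log2 CPM, and their log2 fold changes 0.86 to 0.93. These genes were picked by this distance, so fold changes near that of the mean profile follow from the choice. The distances of the glycogen genes themselves ran from 0.210 for PGM2 to 0.977 for GLG2, so the mean profile describes few of them closely.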

How the data were processed

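The members and gene lists were chosen with earlier results of these data known. The authors aligned paired-end reads to sacCer3 with STAR 2.3.0, removed low-quality alignments and kept proper pairs with SAMtools and deposited raw HTSeq counts per region; whether strand was used in counting is not stated. Their deposited table of DESeq2 fold changes and p-values was not used. All 4 count columns were matched to a sample by name, 0 matched none. Replicates are biological per the methods of the study. Replicate libraries differed beyond sampling noise (chi-square per degree of freedom 20.0 and 10.7).

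Genes with a mean DESeq2-normalized count of at least 30 in either group were kept (4845), as in the study. Counts were scaled by TMM and tested with the quasi-likelihood test of edgeR 4.0.16 in R 4.3.3 with group as the only term, adjusted over all genes and called at the thresholds of the study (adjusted p 0.1, fold 1.5). The SE is the log2 fold change over the square root of F, which is approximate, as are intervals made from it. In counts simulated for this comparison (4835 genes), 98.5% of 1.5-fold changes had an adjusted p under 0.1. Their median log2 fold change was 0.57, below the minimum of 0.58, so this is not the share that would be called. Alternatives were DESeq2 1.42.0, other size factors, a region-length offset, other filters and thresholds, a replicate block and leaving out each library. Named genes were the 8 members tested, SYC1, called genes of the glycogen, trehalose and glucose phosphorylation lists with up to 3 abundant uncalled ones each, the 3 most changed called genes of the other lists, and the 5 nearest profiles; others are named as list members, and some results of the regulator list are not reported here. The ratio of GPH1 to GSY2 was planned and not run. No spike-in was used here, so changes are relative to other RNAs.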

Additional observations from a re-analysis of the deposited data

How the results depend on the processing

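Of the genes named, 4 members (GLC3, GSY2, UGP1 and PGM2) were called up under every alternative fitted, and 0 members were called down under any. The number called up was 4 to 6 with all libraries kept and 5 to 6 when each library was left out. It was 4 when edgeR tested against a fold change of 1.5, where GLG1 (adjusted p 1.00) and GSY1 (adjusted p 0.219) were lost. The median log2 fold change of the members was 0.76 under the length offset, 0.76 with the offset and the replicate block together, and 0.75 without normalization factors. With each library left out it was 0.79 to 1.01. Scaling shifted all genes, since their median was −0.10 under upper-quartile factors and −0.17 without factors, where calls were 373 up and 524 down or 308 up and 655 down in place of 440 and 395. With no fold change minimum, 6 other glycogen genes were up and 3 down. The share of all genes that pass without the minimum is not given here, so these counts say nothing particular about the list.

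The sign for PIG1 turned under the length offset without and with the block (−0.13 each), without factors (−0.13) and under upper-quartile factors (−0.057), and with each library left out it was −0.082 to 0.129, negative without Δsyc1 replicate 2 and without wild-type replicate 1 (−0.0012). For HXK2 it turned under the same settings (−0.040, −0.040, −0.097 and −0.029), and with each library left out it was −0.0030 to 0.118. For GLG2 that range was −0.195 to 0.040, positive without wild-type replicate 2. Replicate numbers mark no stated pairing, and the replicate block left 6 members called up. Since replicate deviations of the groups correlated at −0.18, a crossed pairing was added after the data were seen, and it also left 6 called up. With 2 libraries a group, the paralog ratios and the summed level cannot pass a permutation test at any setting. The planned ratio of GPH1 to GSY2 was not run, since GPH1 was not analysed here.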
